A study of Mus musculus with 3 samples.

Results

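The Fbxw genes encode F-box proteins whose other end carries WD40 repeats. They were taken as all rows of the deposited table whose gene symbol starts with Fbxw and a digit. That gave 21 transcripts of 16 genes, out of 9126 transcripts of 6104 genes. Their mRNAs were measured in pools of mouse oocytes of the ICR strain that were arrested at metaphase II and ready for fertilization. There were 3 groups, which the titles call Young, Aged and Aged_sec, with 1 library each. Every pool was 20 oocytes of 4 mice, taken at the germinal vesicle stage and then cultured for 16 to 18 h in M16 medium. For Aged_sec, called the secretome library here, the medium was mixed 1 to 1 with what mesenchymal stem cells of human umbilical cord had secreted. The treatment label gives the secretome for all 3 samples, so the groups follow the titles, and no label states how old the mice were.

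An F-box protein is the exchangeable part of an SCF ubiquitin ligase. Its F-box binds Skp1, Skp1 holds it to the scaffold Cul1, and Rbx1 on Cul1 brings the ubiquitin-conjugating enzyme. The WD40 repeats fold into a propeller that picks the protein to be marked for destruction. Besides widely studied members such as Fbxw7, the mouse genome carries a tandem array of Fbxw genes whose mRNAs are found in oocytes.

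Each group is 1 library, so no difference below has a replicate error or a p-value, and each is a difference between libraries. Values are TPM, transcript abundances corrected for length that add up to 1000000 in a library. Sequencing depth is unknown from TPM. The table holds only transcripts whose aged over young ratio is at least 1.2, so that every Fbxw transcript had to be higher in aged than in young oocytes. All listed transcripts together held 22.9% of the young, 32.5% of the aged and 32.1% of the secretome library's TPM. TPM are shares of each pool's RNA, so that a change in other mRNAs and a change in the transcript itself cannot be told apart. Of 14 oocyte markers 6 were listed, led by Rfpl4 at 3024, 4485 and 4098 TPM, Omt2a at 1737, 2257 and 2468 TPM and Bmp15 at 585, 817 and 799 TPM. The other 3 were low and predicted variants: Zp2 at 20.5, 39.3 and 20.5 TPM, Gdf9 at 4.36, 6.81 and 4.46 TPM, and Ddx4 at 0.340, 0.690 and 0.170 TPM. Where 3 values follow each other, here and below, they are those of the young, the aged and the secretome library in that order. Of 14 cumulus and granulosa markers 3 were listed, at 1.24, 3.56 and 2.67 TPM in sum, of 5 theca and stroma markers 3, at 2.33, 4.33 and 3.16 TPM, and of 5 blood and immune markers none. The part of these cells in the Fbxw values was not tested.

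RefSeq's annotation of assembly GRCm38.p6 has 24 genes named this way, of which 16 had a listed transcript. The tandem array on chromosome 9 holds 15 of the 24, and 13 of these were listed. In chromosome order they are Fbxw21, Fbxw13, Fbxw20, Fbxw14, Fbxw28, Fbxw22, Fbxw16, Fbxw19, Fbxw15, Fbxw24, Fbxw25, Fbxw26 and Fbxw27, with Fbxw23 after Fbxw19 and Fbxw18 after Fbxw25, whose mRNA levels were not analysed here. No other protein-coding gene lies inside the array. Of the 9 genes elsewhere in the genome, Fbxw4, Fbxw7 and Fbxw11 were listed and the remaining 6 were not analysed here.

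Most clustered genes share much of their promoter sequence, which is shown because it is a feature of the array that the choice of genes did not use. RefSeq's promoter table for GRCm38.p6 held 12 of the 15 clustered genes. Over the 250 bases before the annotated start, 11 of them were 71.6% to 96.8% identical in pairs, with a median of 86.8% over 55 pairs. The pair with the highest identity was Fbxw14 and Fbxw28. Fbxw23 was 51.6% to 56.8% identical to the same 11 genes. The identity that unrelated promoters reach in such an alignment was not measured. The values of Fbxw23 therefore do not show whether it shares sequence with the 11. Fbxw18, whose mRNA was not analysed here either, is among the 11 and was 75.2% to 89.6% identical to the others. Stretches of 84 bases follow for Fbxw28 (chr9:109339746-109339829), Fbxw14 (chr9:109287762-109287845), Fbxw24 (chr9:109626151-109626234), Fbxw15 (chr9:109568354-109568437), Fbxw16 (chr9:109449229-109449312) and Fbxw20 (chr9:109234825-109234908), all on the minus strand of GRCm38.p6. The first 3 genes had the highest TPM, the next 2 were lower in every library, and Fbxw20 departs from the common pattern. Capitals mark E-boxes, the 6-base motif CANNTG to which basic helix-loop-helix factors bind, and the sequences read 5′ to 3′ along the gene.
Fbxw28: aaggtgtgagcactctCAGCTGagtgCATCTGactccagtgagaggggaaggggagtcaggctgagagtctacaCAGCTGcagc
Fbxw14: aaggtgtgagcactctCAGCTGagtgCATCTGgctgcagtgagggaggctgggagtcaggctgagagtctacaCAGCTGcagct
Fbxw24: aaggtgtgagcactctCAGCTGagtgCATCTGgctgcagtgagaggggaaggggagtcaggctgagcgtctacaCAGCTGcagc
Fbxw15: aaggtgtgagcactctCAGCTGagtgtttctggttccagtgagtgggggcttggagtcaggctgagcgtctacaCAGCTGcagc
Fbxw16: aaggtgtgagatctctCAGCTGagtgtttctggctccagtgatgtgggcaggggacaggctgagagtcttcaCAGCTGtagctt
Fbxw20: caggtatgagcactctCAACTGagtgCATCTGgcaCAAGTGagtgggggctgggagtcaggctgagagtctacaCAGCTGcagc

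The palindromic E-box CAGCTG occurred before the start of 11 of the 12 clustered genes, against 13.0% of all 32851 promoters in the table. In 10 of the 12 it occurred as a pair, which 1.26% of all promoters held. The 2 copies lay 58 bases apart, first base to first base, in 8 of these genes, and 57 apart in Fbxw14 and 56 in Fbxw16. Their usual place is seen in Fbxw24, at positions −159 and −101, where −1 is the base before the start. In Fbxw20 the upstream copy reads CAACTG, and Fbxw23 held no CAGCTG. A further E-box that reads CATCTG follows the upstream copy in Fbxw28, Fbxw14 and Fbxw24, but not in Fbxw15 and Fbxw16. It also follows in Fbxw21, which had the lowest mean TPM of the listed array genes, in Fbxw18, and after the CAACTG of Fbxw20. Searched on both strands, CATCTG was found in 8 of the 12 genes, against 14.4% of all promoters. The longer run CAGCTGAGTG was taken from the Fbxw28 promoter and contains the CAGCTG of the upstream copy. It was found on either strand in 10 of the 12 genes. Of all 32851 promoters, which include those of the clustered genes, 45 (0.137%) held it. Any E-box was found in 66.2% of all promoters, so its presence in all 12 says little. The TATA-type motif TATAAA and the homeobox motifs TAATTA and TAATTG, on either strand, were in none of the 12 windows and in 12.4%, 4.84% and 7.17% of all promoters. These motifs were chosen after the sequences had been read, the genes are copies of one another, and a match in letters is not a measured site.

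**Figure D1:**
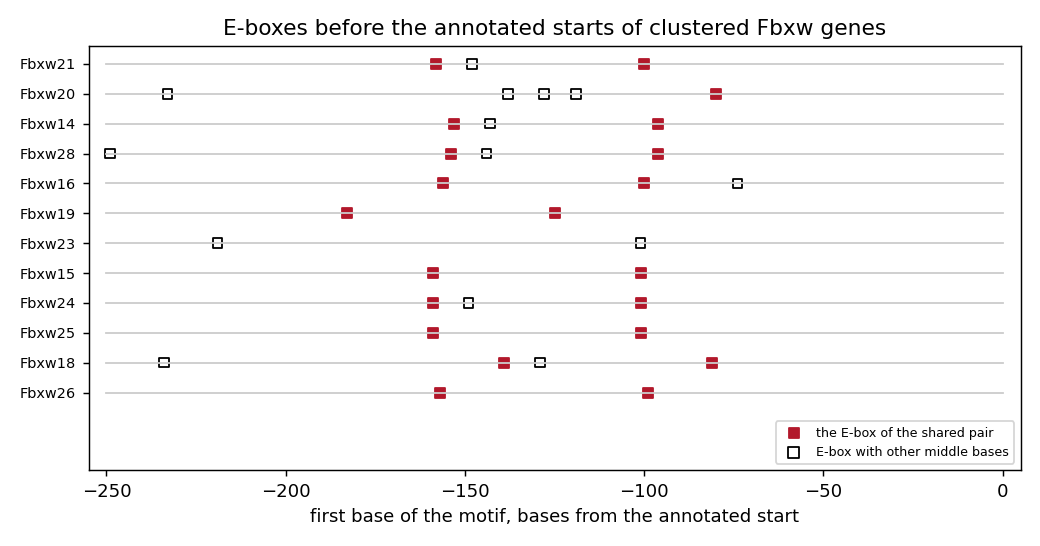
E-boxes in the 250 bases before the annotated start of the 12 clustered Fbxw genes with a RefSeq promoter, in chromosome order; the x axis gives the first base of each motif in bases from the start. Filled squares are CAGCTG, which forms a pair in 10 genes, and open squares are other E-boxes; Fbxw23 has no filled square and Fbxw20 has 1.

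Together the 21 Fbxw transcripts made up 2.54%, 3.30% and 3.62% of all TPM. In sum they stood at 25377, 33049 and 36203 TPM. Among the listed TPM alone their share was 11.1%, 10.2% and 11.3%. Listing required a higher aged value, which raises the listed total in the aged library. The lower aged share is therefore a description only. Nearly all of it came from the array on chromosome 9. Fbxw4, Fbxw7 and Fbxw11 together reached 5.38, 7.59 and 12.0 TPM.

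The array is led by Fbxw28 (NM_001177420), at 10469, 13254 and 15099 TPM. It ranked 4 among all 9126 listed transcripts in each of the 3 libraries and held 41.3%, 40.1% and 41.7% of the family's TPM. Fbxw14 (NM_001311159) followed with 4866, 6006 and 6734 TPM, and ranked 6 in each library. Fbxw24 (NM_001013776) stood at 4435, 5859 and 5824 TPM. These 3 transcripts held 1.98%, 2.51% and 2.77% of all TPM. For each of the 3 the young library was the lowest. The secretome library was the highest for Fbxw28 and Fbxw14, while Fbxw24 was nearly level in aged and secretome-matured oocytes. The next were a predicted variant of Fbxw28 (XM_006512211), at 1901, 2452 and 2647 TPM, and Fbxw22 (XM_006512181), at 1404, 1862 and 2073 TPM.

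A middle group of the array lay between 149 and 835 TPM. Fbxw16 (NM_177070) stood at 463, 768 and 835 TPM. Fbxw19 (XM_011242961) stood at 435, 645 and 783 TPM. For both genes the order was young, aged, secretome, as for Fbxw28. Fbxw20 (NM_001008428) reached 389, 699 and 631 TPM, with aged the highest. Fbxw15 (NM_199036) stood at 406, 512 and 585 TPM, and Fbxw26 (NM_198674) at 149, 189 and 175 TPM. The order of neighbours in this group was not the same in every library: Fbxw15 was above Fbxw20 in young oocytes and below it in the other 2 libraries.

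The rest of the array was lower. Fbxw25 (XM_030244767) was at 79.5, 111 and 108 TPM, and Fbxw13 (NM_177598) at 47.7, 60.4 and 62.5 TPM. Fbxw21 (XM_017313431) was at 30.2, 38.5 and 31.3 TPM, with secretome close to young. Among array transcripts at 10 TPM or more, those of Fbxw27 had the largest aged over young ratios. Its predicted transcript XM_003084806 stood at 35.8, 110 and 70.8 TPM and its curated transcript NM_001303004 at 13.8, 31.2 and 21.7 TPM. In both the aged library was the highest and the secretome library lay between young and aged.

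**Figure D2:**
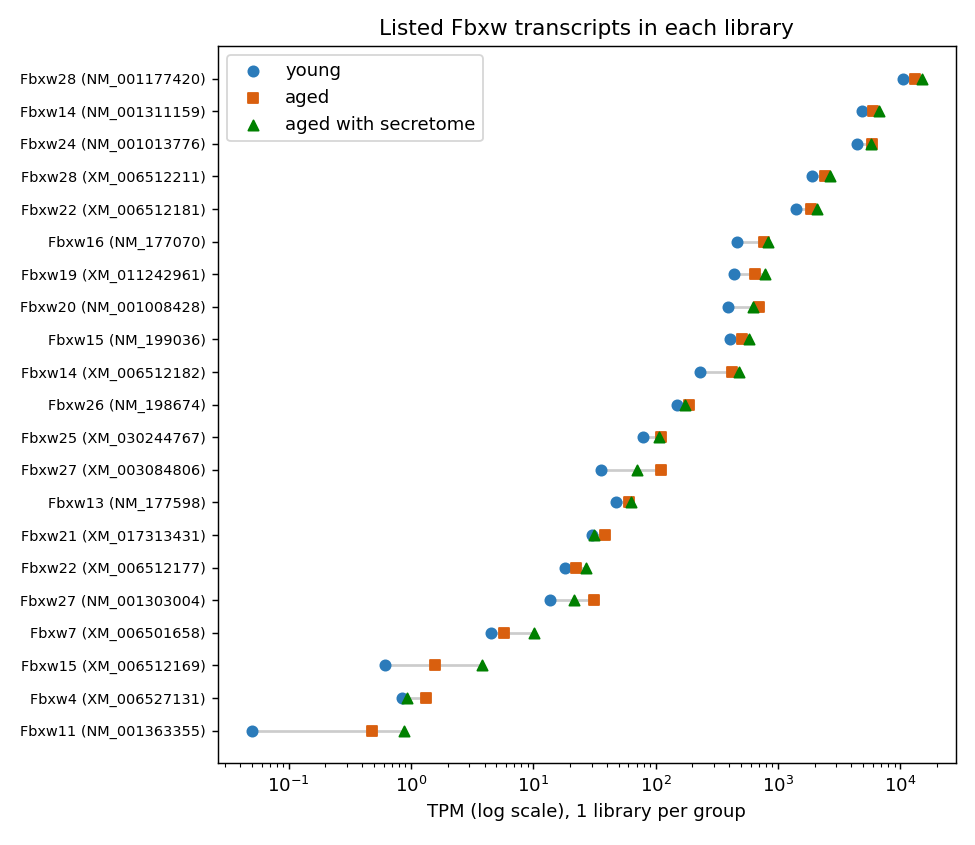
TPM (log scale) of the 21 listed Fbxw transcripts in the young, aged and secretome libraries, 1 point per library, ordered by mean TPM. Values run from 0.050 TPM for Fbxw11 in young to 15099 TPM for Fbxw28 in secretome-matured oocytes, and young is the lowest point of every transcript.

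Along the chromosome, summed per gene and averaged over the libraries, Fbxw21, Fbxw13 and Fbxw27 at the 2 ends of the array were the lowest. At one end neither Fbxw21 nor Fbxw13 exceeded 62.5 TPM in any library, and Fbxw27 at the other end summed to 49.6, 141 and 92.5 TPM. The adjacent genes Fbxw14 and Fbxw28 reached 5096, 6427 and 7215 TPM and 12371, 15706 and 17746 TPM. Fbxw24 was a separate high point, between Fbxw15 at 406, 513 and 589 TPM and Fbxw25.

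**Figure D3:**
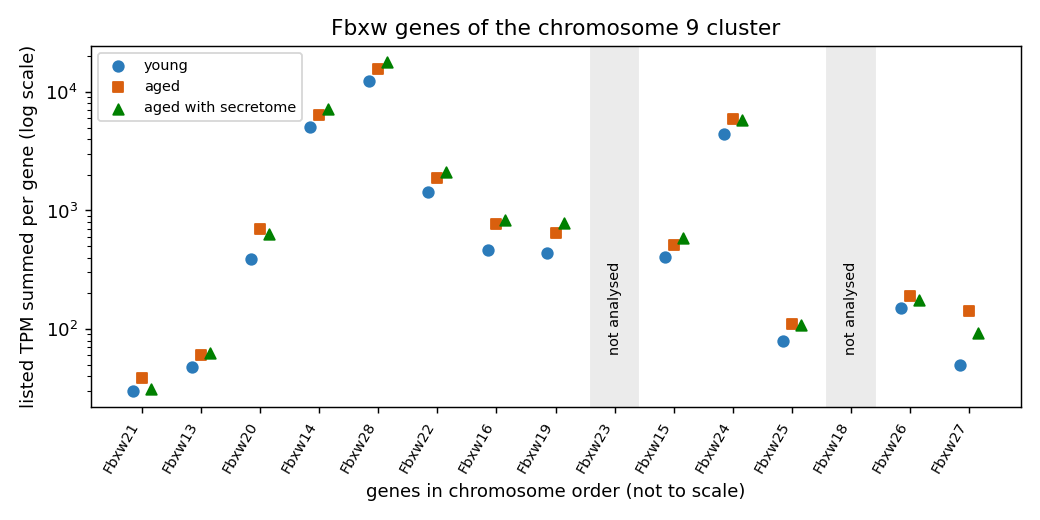
Listed TPM summed per gene (log scale) for the 15 Fbxw genes of the chromosome 9 array in chromosome order, 1 point per library; distances are not to scale. Fbxw28 and Fbxw14 are the highest neighbours and Fbxw24 forms a separate high point; TPM of Fbxw23 and Fbxw18 were not analysed.

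The mRNAs of the array resemble each other closely enough to bear on these values. For 9 of the 21 listed transcripts the sequence of the same accession was found in GENCODE release M21. In pairs they were 80.5% to 98.9% identical over the shorter transcript, with a median of 85.2% over 36 pairs. Of all stretches of 50 bases in Fbxw28, 67.1% occurred without a mismatch in a transcript of another gene, and 67.1% in one of Fbxw14. Of those in Fbxw14, 66.3% occurred in another gene. Fbxw24 was the most distinct, at 5.77%. The values for Fbxw13, Fbxw15, Fbxw16, Fbxw20 and Fbxw26 lay between 8.71% and 15.4%, and Fbxw27 was at 21.6%. All partners of these 9 transcripts were Fbxw genes. How the authors' quantification divided such reads is not given in the sources used here. The separate levels of Fbxw28 and Fbxw14 are therefore uncertain, while those of Fbxw24 rest mostly on sequence of its own.

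Of the 16 genes 5 had 2 listed variants, and in each of them 1 variant held most of the listed TPM in every library. NM_001177420 held 84.6%, 84.4% and 85.1% of the listed TPM of Fbxw28. Of Fbxw22, XM_006512181 held 98.7%, 98.8% and 98.7%, and XM_006512177 was at 18.2, 22.5 and 27.0 TPM. The lesser transcript of Fbxw15, XM_006512169, was at 0.610, 1.56 and 3.81 TPM, or 0.150%, 0.304% and 0.647% of that gene. The lesser transcript of Fbxw14, XM_006512182, went from 4.50% in young to 6.55% in aged and 6.67% in secretome-matured oocytes. XM_003084806 held 72.2%, 77.9% and 76.5% of Fbxw27. Sequence shared between variants of the same gene was not measured, so the division of a gene's TPM between its variants is uncertain. The 16 genes have 53 mRNAs in RefSeq, and the variants outside the table were not analysed here.

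The 3 genes outside the array include the well-studied members. Fbxw7 directs cyclin E, Myc, Notch and Jun to destruction. Its listed transcript, the predicted variant XM_006501658, stood at 4.48, 5.79 and 10.2 TPM, with secretome the highest. Fbxw11, also known as beta-TrCP2, recognises phosphorylated beta-catenin and the NF-kappa-B inhibitor. Only its variant NM_001363355 was listed, at 0.050, 0.480 and 0.880 TPM. Fbxw4, the gene disrupted in the dactylaplasia mouse, was listed with XM_006527131 at 0.850, 1.32 and 0.930 TPM. At levels under 1 TPM a ratio is imprecise, and the number of reads behind it is unknown. Other variants of these genes were not analysed here, so these values are not the level of the gene.

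The comparison of aged with young oocytes asks how far the family was above young in the aged library, the direction being fixed by the table. The abundant members lay near the lower limit of the table. Fbxw14 was 1.23-fold above young in the aged library, Fbxw28 1.27-fold and Fbxw24 1.32-fold. Fbxw16 was 1.66-fold and Fbxw20 1.80-fold higher, and the 2 Fbxw27 transcripts 2.26-fold and 3.06-fold. A transcript passed the size rule when the higher of its 2 libraries had 10 TPM or more and the ratio reached 2 after 0.5 TPM was added on both sides. Of 17 members with enough TPM only the 2 Fbxw27 transcripts passed, where 18.2% of all listed transcripts passed upward and 0% downward. The members' share is not above that background. Their median ratio was 1.33 over 21 transcripts, against 1.71 over the table. Among transcripts at 1000 TPM or more in aged oocytes the median was 1.29 for 5 Fbxw and 1.30 for 35 others. After scaling the listed transcripts to equal medians 17 of the 21 members were below young in the aged library, and after scaling to equal upper quartiles 15. Such scaling sets a list chosen for high aged values to no difference. A member falls below young there when its ratio is smaller than the one set to no difference. These counts therefore set members against the list and cannot tell the direction. The same counts over all listed transcripts were not made.

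The comparison of the secretome with the aged library asks whether secretome during maturation was accompanied by other levels of these mRNAs. Of the 21 transcripts 13 were higher and 8 lower in secretome-matured oocytes. Over all listed transcripts 28.4% were higher and 70.6% lower. Among others at 100 TPM or more in aged oocytes 31.6% were higher and 68.4% lower, beside 8 higher and 5 lower of 13 Fbxw. At 1000 TPM or more 51.4% of the others were higher and 48.6% lower, beside 4 higher and 1 lower of 5 Fbxw. Fbxw28 and Fbxw15 were 1.14-fold, Fbxw14 1.12-fold and Fbxw19 1.21-fold higher than in aged oocytes. The lower ones were Fbxw24 (ratio 0.99), Fbxw25 (0.97), Fbxw26 (0.92), Fbxw20 (0.90), Fbxw21 (0.81), Fbxw4 (0.70) and both Fbxw27 transcripts (0.64 and 0.70). The median ratio was 1.09, against 0.82 over the table, 0.92 over the 354 others at 100 TPM or more in aged oocytes, and 1.00 over the 35 others at 1000 TPM or more. Fbxw rows at 1000 TPM or more had a median of 1.11, so the distance to other transcripts was smaller at like levels. No Fbxw transcript met the size rule, which was met upward by 0.223% and downward by 2.95% of listed transcripts. Fbxw15 (XM_006512169) had the largest ratio, 2.44, at 1.56 and 3.81 TPM, below the minimum level of the rule. After scaling of the libraries to equal medians of the listed transcripts 18 of the 21 were higher and 3 lower. After scaling to equal upper quartiles 17 were higher and 4 lower. Scaling a list chosen for high aged values raised every secretome over aged ratio. The same counts over all listed transcripts were not made, so these counts show no stronger rise of the family. Both comparisons use the aged library, so a chance high value there would raise the first ratio and lower the second.

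**Figure D4:**
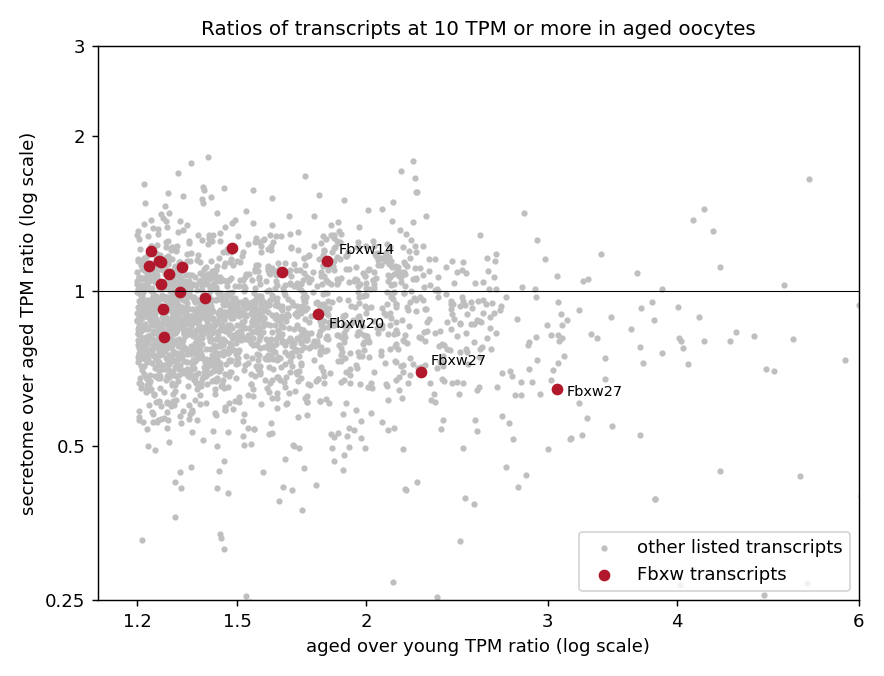
Secretome over aged against aged over young TPM ratios (log scales) for listed transcripts at 10 TPM or more in aged oocytes; 17 Fbxw transcripts are red, others grey, and 54 others lie outside the axes. Most Fbxw points lie at ratios of 1.23 to 1.83 on the x axis near or above the line at 1, and the 2 Fbxw27 points lie to the right and below it.

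Set against young oocytes, all 21 Fbxw transcripts were higher in secretome-matured oocytes, as were 75.8% of listed transcripts. Every member was listed for a higher aged value, so the count is a description. After scaling to equal medians 12 of the 21 were below young, and after scaling to equal upper quartiles 10. Scaling a list chosen for high aged values cannot settle the direction, and the share of all listed transcripts below young after scaling was not counted. On the deposited scale none of the 21 was below young, whereas 21.8% of the table was. At like levels that share was lower, 9.32% of 354 others at 100 TPM or more in aged oocytes and 2.86% of 35 others at 1000 TPM or more. Fbxw28 was 1.44-fold, Fbxw14 1.38-fold and Fbxw24 1.31-fold higher than in young oocytes, and Fbxw21 was closest to young at 1.04-fold. The size rule was met by Fbxw7, whose values are given above, and by the lesser Fbxw14 transcript XM_006512182, at 229, 421 and 481 TPM. That was 2 of 18 members with enough TPM upward and none downward, against 17.1% and 0.450% of listed transcripts. The median ratio was 1.48, against 1.41 over the table.

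The partners of F-box proteins in the SCF ligase were listed in part. Of 25 genes of the SCF core and its regulators 13 had a listed transcript, taken as the one with the highest mean TPM. Skp1a, the adaptor that binds the F-box, stood at 855, 1185 and 1189 TPM. Cul1, the scaffold, stood at 319, 536 and 496 TPM with a predicted variant, and Rbx1, its RING subunit, at 346, 488 and 494 TPM. In each of these 3 transcripts young was the lowest, and aged and secretome were close. A curated Cul1 transcript with a lower mean, 215.7 TPM, went another way. Its ratio was 1.25 for aged over young and 0.75 for secretome over aged. On the TPM scale, which is per length, the level of Fbxw28 (NM_001177420) was 12.2-fold, 11.2-fold and 12.7-fold that of Skp1a. At the transcript with the highest mean TPM, none of the 13 genes met the size rule in the age comparison or between the secretome and the aged library. From the aged to the secretome library 3 were higher and 10 lower, with a median ratio of 0.85. Glmn, which binds Rbx1 and holds the ligase inactive, passed the rule between the young and the secretome library, at 9.33, 13.0 and 20.5 TPM. Lesser listed transcripts, left out of these counts, had larger ratios in some of the genes. At 10 TPM or more in aged oocytes, the aged over young ratio was 3.28 for one of Uba3, 5.34 for one of Cops4 and 6.36 for one of Glmn. For that Cops4 transcript the secretome over aged ratio was 0.27.

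A list of 25 substrates and partners of SCF ligases, of which not all belong to Fbxw proteins, had 11 listed genes. Most of its TPM came from Cks1b, a small protein that works with Skp2, an F-box protein of another family, at 3915, 4767 and 4428 TPM. Wee2, the oocyte kinase that restrains Cdk1, stood at 250, 333 and 273 TPM, and Nfkbia, the NF-kappa-B inhibitor, at 209, 261 and 195 TPM. Aged was the highest library for all of these. At the transcript with the highest mean TPM, none of the 11 met the size rule in any pair of libraries. At that transcript 9 were lower in the secretome than in the aged library, with a median ratio of 0.82. Btrc, the closest relative of Fbxw11, was at 1.09, 1.66 and 1.21 TPM. Of the cell cycle F-box genes, Fbxo5 (Emi1, an inhibitor of the anaphase-promoting complex) stood at 92.0, 137 and 140 TPM. Fbxo43, the Emi2 gene that keeps the egg at metaphase II, was listed with a predicted variant at 9.97, 14.2 and 8.98 TPM.

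Among listed transcripts, other F-box families were far lower in sum than the Fbxw genes. The 20 listed Fbxl and Fbxo genes together stood at 300, 433 and 403 TPM, taking the highest transcript of each out of 29 listed. The Fbxw sum takes all 21 listed transcripts. Genes and variants outside the table were not analysed here, so these sums are not the levels of the whole families. Their most abundant members beside Fbxo5 were Fbxl5, which senses iron, at 55.5, 73.9 and 57.5 TPM, and Fbxo9, at 46.2, 56.9 and 48.1 TPM. Against young, Fbxo11 and Fbxo3 met the size rule in aged oocytes, at 10.1 and 22.5 TPM and at 10.3 and 25.6 TPM, and Fbxo11 also in secretome-matured oocytes, at 35.0 TPM. From the aged to the secretome library 11 of the 20 were higher and 9 lower, with a median ratio of 1.01.

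The transcripts most like Fbxw28 across the 3 libraries were sought among the 4 others with a mean TPM within 2-fold of its own. Likeness was the distance between the 2 log2 ratios, aged over young and secretome over aged. The nearest was Obox5, an oocyte homeobox gene, at 13442, 16166 and 18664 TPM and a distance of 0.08. Mphosph6, named for its phosphorylation in M phase, followed at 17289, 20931 and 22208 TPM with 0.12, and Cks2, a small subunit of Cdk1 kinase, at 7430, 8942 and 11674 TPM with 0.21. All of them had the order young, aged, secretome, as Fbxw28 did. With 3 libraries and 4 candidates this is a description only.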

How the data were processed

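The labels' protocols describe SMART-Seq2 cDNA of oocyte pools, library construction with a transposon, and the design text names the DNBSEQ platform. The file called raw counts holds TPM of RefSeq transcripts as deposited by the authors, with 1 column for each library. Its remaining columns are the authors' TPM ratio of aged to young and of secretome to aged, as deposited, and recomputed quotients differed by at most 6.6e-07. Which tools and build lie behind the TPM is not given in the sources used here. No listed ratio of aged to young is under 1.2 and no TPM is 0.

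Fold values carry no pseudocount; log2 ratios and the size rule (2-fold, 10 TPM) add 0.5 TPM. With 1 library per group no test was made. Of the Fbxw transcripts 10 are curated and 11 predicted, and 20 of 21 accessions matched RefSeq of GRCm38.p6, which gave names, gene order and promoters. Its coordinates are those of the promoter table. Identities come from global alignment in Biopython 1.88. Computation used Python 3.11.15 and pandas 2.3.3. Named were each Fbxw gene at its transcript with the highest mean TPM, every Fbxw transcript past the size rule, and from each list the 3 genes with the highest mean TPM and those past the rule. Members and lists were chosen with earlier results of these data known. Alternatives changed the pseudocount, minimum, scaling, transcript set and unit.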

Additional observations from a re-analysis of the deposited data

How the results depend on the processing

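Of 75 alternative values for 9 results, 65 stayed within 1.5-fold (or, for the count of lower members, within its 95% binomial interval) and on the same side. Part of these could not change and the 1.5-fold limit is wide, so the count overstates how stable the results are. No Fbxw transcript was listed in a second copy, so leaving such copies out altered nothing. A minimum level or summing per gene cannot alter summed TPM, and a pseudocount cannot alter the count of lower members. Scaling the listed transcripts to equal medians shifted log2 ratios by −0.95 for aged over young, 0.36 for secretome over aged and −0.58 for secretome over young, and equal upper quartiles by −0.79, 0.25 and −0.54. Such scaling sets a list chosen for high aged values to no difference, so it cannot tell the direction. The Fbxw median log2 ratio of aged over young, 0.41, was smaller in size than these shifts. It went to −0.53 (medians) and −0.38 (upper quartiles). The secretome over young median went from 0.56 to −0.02 with equal medians and to 0.03 with equal upper quartiles. With equal medians summed Fbxw values were 36167, 24407 and 34397 for young, aged and secretome. The 0.03 and these sums count as within 1.5-fold, although the sum was then lower in aged than in young. Of the 2 members past the size rule in the age comparison, 0 were left under either scaling, 1 with curated transcripts only and 1 with TPM summed per gene. Between the secretome and the aged library 1 member, Fbxw15 (XM_006512169), passed the size rule in place of 0 when the minimum was 1 TPM or absent. The count of members below aged in the secretome library went from 8 to 3 with equal medians. No paired analysis was possible because each group has 1 library, and no library could be left out for the same reason. Depth is unknown, so it could not be used to weigh low transcripts such as Fbxw11.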
